A study of Homo sapiens with 8 samples.

Results

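The S100 calcium-binding protein genes expressed in A375 cells are described here across 8 RNA sequencing libraries. The 10 genes (S100B, S100A1, S100A2, S100A3, S100A4, S100A6, S100A10, S100A11, S100A13 and S100A16) were chosen by symbol among the 60710 genes of the count table, of which 16186 passed a filter on low counts. All 10 passed that filter. The difference between untreated and TNF-treated libraries was already known when the members were chosen, so their differences are a description and are not evidence about the family.

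S100 proteins are small proteins that carry a pair of EF-hand calcium-binding motifs and usually work as dimers. On binding calcium most of them expose a surface that docks a partner protein, such as an annexin, a myosin heavy chain or p53. Some are also released from cells and act through surface receptors such as RAGE. In melanocytes and melanoma, S100B is a routine tissue and serum marker, and most other genes of the family lie side by side in a cluster on chromosome 1.

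A375 is an established human melanoma cell line derived from a metastasis, grown here in medium with fetal bovine serum. Cells were left untreated (NT, 4 libraries) or received TNF at 50 ng/mL for 24 h (TNF, 4 libraries). One NT and one TNF library share each of 4 experiment dates, which number the replicates from 1 to 4. Both groups come from 1 cell line in culture, so p-values measure the spread between these experiments only. Each gene has an expected count, that is, a read count estimated by the authors with RSEM, and totals ran from 30989787 to 44373296 in NT and from 33317454 to 43125094 in TNF. Levels are given as CPM, a gene's count relative to its library's total after TMM scaling, and differences as TNF against NT. Bulk RNA cannot tell fewer cells that express a gene from less RNA per cell.

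The line was checked against its lineage markers and against the treatment. SOX10, a neural crest transcription factor that melanocytes keep, had a mean of 1025 CPM in NT and 1177 in TNF. The pigment cell genes were near 0, with at most 21 counts of MLANA, 24 of PMEL and 1 of TYR in any library. All 10 NF-κB target genes used as a check of the treatment rose, with a median log2 fold change of 3.30. Libraries NT 2, NT 4 and TNF 4 held more small structural RNA than the rest, with 131 to 138 CPM (before TMM scaling) from 18 genes of 5.8S, 7SK and 7SL RNA against 24.97 to 42.4 elsewhere. The second principal component, with 17.2% of the variance, set both libraries of replicate 4 apart.

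The starts of 3 members on the minus strand of chromosome 1 are shown because S100A3 and S100A2 carried the largest and second largest higher values with TNF while S100A4, whose annotated span contains S100A3, differed by 0.24 on the log2 scale and did not pass the test. Each line gives the 250 bases before the RefSeq start (GRCh38.p14), 5′ to 3′ on the minus strand, with matches to the motifs searched in capitals. The bases shown lie at chr1:153549259-153549508 for S100A3, chr1:153565845-153566094 for S100A2 and chr1:153545807-153546056 for S100A4.
S100A3: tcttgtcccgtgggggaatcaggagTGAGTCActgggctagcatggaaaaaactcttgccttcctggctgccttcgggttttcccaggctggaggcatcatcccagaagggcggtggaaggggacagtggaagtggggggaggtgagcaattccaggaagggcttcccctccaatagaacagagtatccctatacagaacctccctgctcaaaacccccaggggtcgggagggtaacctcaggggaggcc
S100A2: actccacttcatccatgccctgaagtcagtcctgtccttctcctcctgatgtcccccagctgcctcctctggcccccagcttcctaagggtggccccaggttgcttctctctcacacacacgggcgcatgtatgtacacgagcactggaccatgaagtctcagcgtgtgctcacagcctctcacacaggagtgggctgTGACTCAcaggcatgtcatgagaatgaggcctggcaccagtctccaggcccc
S100A4: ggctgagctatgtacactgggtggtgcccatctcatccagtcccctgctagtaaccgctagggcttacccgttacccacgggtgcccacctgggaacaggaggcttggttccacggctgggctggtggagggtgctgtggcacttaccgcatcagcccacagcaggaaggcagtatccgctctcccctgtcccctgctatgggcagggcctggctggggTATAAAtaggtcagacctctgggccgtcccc
The capitals mark TGAGTCA 225 bases before the S100A3 start, TGACTCA 52 bases before the S100A2 start shown and TATAAA 31 bases before the S100A4 start.

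Motifs were chosen after the values were seen, and a match is only a description of the letters. TGANTCA, the site of AP-1 factors, was present in the windows of 9.37% of 27305 genes with a window (250 bases before to 50 after a start, both strands). TATAAA, the TATA box, was present in 14% of them. The other motifs searched were CATGTG (13.4%), CACGTG (8.77%) and the kappaB motif (13.3%). Of the 10 members, 9 had at least 1 window, 13 windows in all. S100A2 has another RefSeq start, whose window held none of the motifs. Beside the 3 matches shown, CATGTG stood 231 bases before one start of S100A16, and S100A13 had CACATG, the same motif on the opposite strand, 73 bases before one start and TATAAA 29 bases before another. These letters of the kappaB motif were not found in any of the 13 windows.

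With TNF, 5 members passed adjusted p 0.05 as higher (S100A3, S100A2, S100A16, S100A11 and S100A6), 1 as lower (S100B), and 4 did not pass (S100A1, S100A4, S100A10 and S100A13). The test was edgeR's quasi-likelihood test with Benjamini-Hochberg adjustment over all 16186 genes, of which 2345 (14.5%) were called higher and 1603 (9.9%) lower. The balance over all genes depended on the scaling, with 1925 higher and 2514 lower by library totals and 2045 higher and 2196 lower by upper-quartile factors. When the experiment date entered the same test as a block, 8 members were called higher and 2 lower, against 21.3% and 18.2% of all genes. In CPM, 5 members had every TNF library above every NT library, as had 15.6% of all genes, and 1 had every TNF library below, as had 11.6%. The median log2 fold change was 0.36 over the 10 members and -0.0035 over all genes tested.

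**Figure D1:**
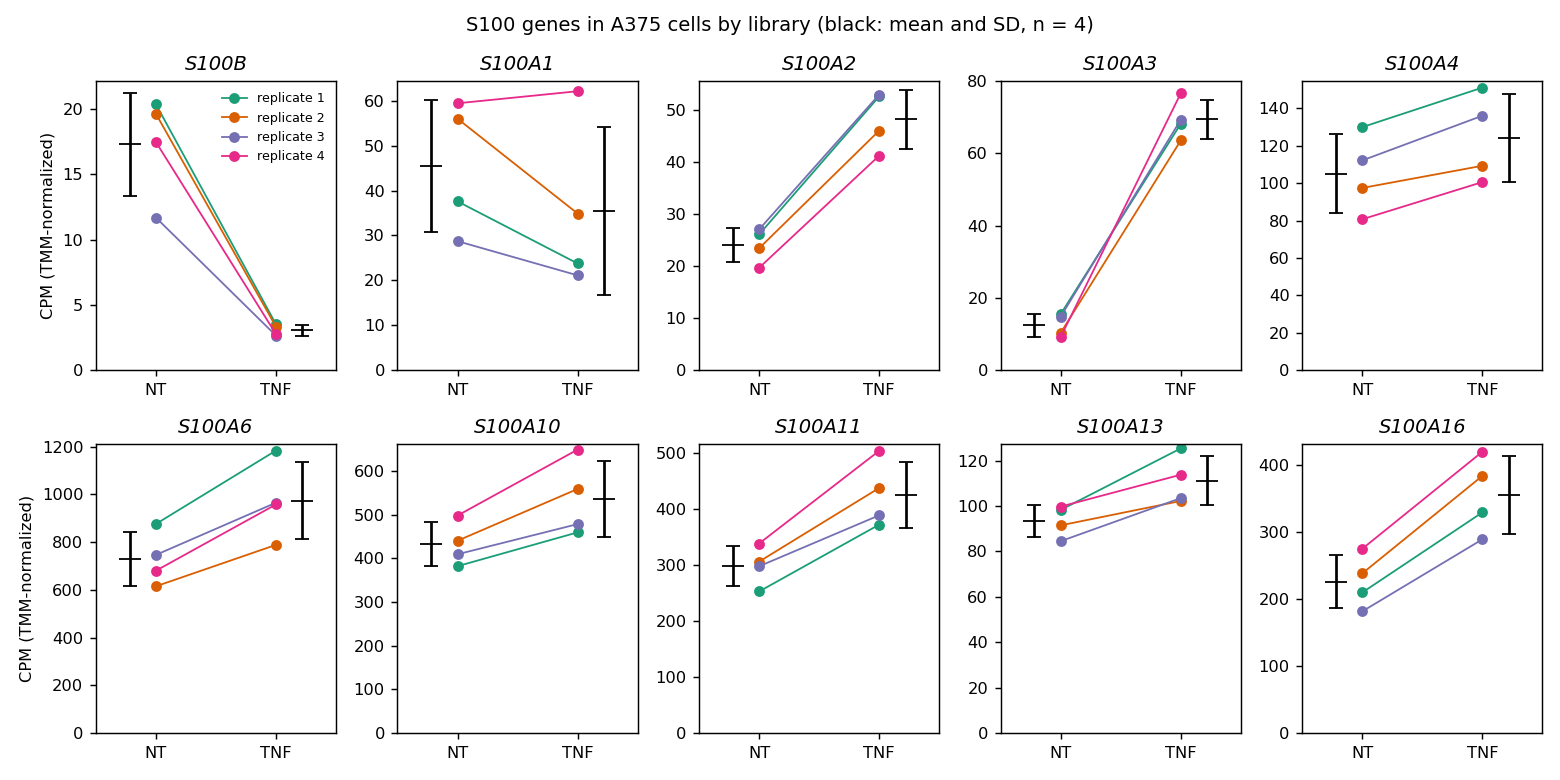
CPM of each S100 gene in NT and TNF libraries, one panel per gene, with lines joining libraries of the same experiment and black marks for the mean and SD (n = 4). S100B fell in each experiment and S100A3 and S100A2 rose in each, while for S100A1 the library of experiment 4 was slightly higher with TNF and the others lower.

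S100B (ENSG00000160307.10, chr21:46598604-46605208, minus strand) is the only member outside the chromosome 1 cluster. It stood at 20.3, 19.6, 11.7 and 17.5 CPM in NT replicates 1 to 4, and at 3.50, 3.32, 2.64 and 2.75 CPM in TNF replicates 1 to 4. All 4 TNF libraries lay far below the lowest NT library. The means were 17.3 ± 3.93 and 3.05 ± 0.421 CPM (SD, n = 4), a 5.67-fold lower level with TNF (95% CI 4.25 to 7.57). The level rests on 371 to 952 counts in the NT libraries and 85 to 122 counts in those with TNF. Within experiments the difference was -2.52, -2.54, -2.12 and -2.64 on the log2 scale, the smallest in experiment 3, where NT was lowest. It is the S100 gene most used to identify melanoma, and here it was a low transcript already before treatment.

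S100A3 (ENSG00000188015.10, chr1:153547329-153549258, minus strand), a protein best known from the hair cuticle, moved the most upward. NT replicates 1 to 4 had 15.5, 10.4, 14.9 and 9.23 CPM and TNF replicates 68.3, 63.6, 69.4 and 76.7 CPM. The groups were far apart, and no TNF library came near the highest NT library. The mean rose from 12.5 ± 3.16 to 69.5 ± 5.41 CPM, or 5.55-fold (95% CI 4.32 to 7.12). Counts were 291 to 727 in NT and 2072 to 2995 in TNF. The rise within experiments was 2.13, 2.61, 2.22 and 3.05 on the log2 scale, and experiment 4 went from the lowest NT value to the highest TNF value.

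S100A2 (ENSG00000196754.13, chr1:153561108-153567890, minus strand), a mostly nuclear member found in epithelial cells, doubled its level. Its NT libraries had 26.1, 23.4, 27.0 and 19.6 CPM and its TNF libraries 52.5, 46.0, 52.9 and 41.2 CPM. No library of either group came near the other group. The fold was 2.003 (95% CI 1.67 to 2.40), with means of 24.0 ± 3.30 and 48.1 ± 5.63 CPM. Within experiments the difference was 1.01, 0.97, 0.97 and 1.06 on the log2 scale, nearly the same in all 4.

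S100A16 (ENSG00000188643.11, chr1:153606886-153613145, minus strand), a widely expressed member, had 210, 238, 182 and 275 CPM in NT and 329, 384, 289 and 420 CPM in TNF. The lowest TNF library was only just above the highest NT library. The level was 1.57-fold higher, from 226 ± 40.0 to 356 ± 57.9 CPM, and the log2 difference was 0.65 ± 0.145 (SE). Within experiments it was 0.65, 0.69, 0.67 and 0.61, while the highest NT library was 1.52 times the lowest.

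S100A11 (ENSG00000163191.6, chr1:152032506-152047907, minus strand), which docks annexin A1, had 253, 306, 298 and 339 CPM in NT and 372, 438, 389 and 504 CPM in TNF. Here too the groups did not overlap, with experiment 4 highest in both. The mean went from 299 ± 35.4 to 426 ± 59.2 CPM, 1.43-fold, and the log2 difference was 0.51 ± 0.115 (SE). S100B, S100A2, S100A3, S100A11 and S100A16 passed the threshold in each of the 18 other settings tried. The differences of S100A11 within experiments were 0.56, 0.52, 0.39 and 0.57 on the log2 scale.

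S100A6 (ENSG00000197956.10, chr1:153534599-153536244, minus strand), or calcyclin, was the most abundant member. It had 876, 615, 747 and 680 CPM in NT and 1184, 789, 966 and 958 CPM in TNF. The groups overlapped, since NT replicate 1 was above TNF replicate 2, although each TNF library exceeded the NT library of its experiment, by 0.43, 0.36, 0.37 and 0.49 on the log2 scale. The mean rose 1.34-fold, from 729 ± 112 to 974 ± 162 CPM, with an adjusted p of 0.0471 in edgeR's quasi-likelihood test that is just under the threshold. With the experiment date as a block the adjusted p was 0.000113. The call was lost on leaving out NT replicate 2 (0.139), NT replicate 3 (0.0929), NT replicate 4 (0.11), TNF replicate 1 (0.131), TNF replicate 3 (0.0815) or TNF replicate 4 (0.0722), and with library totals as the scale (0.121).

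S100A10 (ENSG00000197747.9, chr1:151982915-151993859, minus strand), also called p11, is the light chain of the annexin A2 tetramer and does not bind calcium. Its NT libraries had 382, 441, 410 and 499 CPM and its TNF libraries 460, 559, 479 and 650 CPM. Values overlapped across groups, but each TNF library was above the NT library of its own experiment, by 0.27, 0.34, 0.23 and 0.38 on the log2 scale. The means were 433 ± 49.9 and 537 ± 86.7 CPM. The adjusted p was 0.0909 without and 0.000941 with the block (edgeR's quasi-likelihood test). It was 0.0388 without the 3 libraries with more small structural RNA and 0.0425 without both libraries of replicate 4.

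S100A4 (ENSG00000196154.12, chr1:153543613-153550136, minus strand), which binds nonmuscle myosin IIA and is linked to metastasis, differed less. It had 129.9, 97.4, 112.1 and 80.7 CPM in NT and 151.1, 109.3, 136.0 and 100.6 CPM in TNF. The ranges overlapped widely, and experiment 1 was highest and experiment 4 lowest in both groups. Its log2 difference was 0.24 (95% CI -0.12 to 0.60), with an adjusted p of 0.332, or 0.00308 with the block. It was 0.13 without NT replicate 4 (adjusted p 0.612), 0.13 without TNF replicate 1 (0.655) and 0.12 without the 3 libraries with more small structural RNA (0.572). The 1930 bases of S100A3 lie inside its annotated span on the same strand, but before the S100A4 RefSeq start shown above. Both genes had whole-number counts in all libraries. Within experiments S100A4 was higher with TNF by 0.22, 0.17, 0.28 and 0.32 on the log2 scale.

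S100A13 (ENSG00000189171.14, chr1:153618787-153631360, minus strand), which takes part in the release of FGF1 and interleukin 1α, had 98.3, 91.5, 84.5 and 99.7 CPM in NT and 125.4, 102.2, 103.5 and 113.8 CPM in TNF. The groups did not overlap, yet their edges were close. Within experiments the difference was 0.35, 0.16, 0.29 and 0.19 on the log2 scale, and its NT libraries were the least spread of all members, the highest being 1.18 times the lowest. The log2 difference was 0.25 (95% CI 0.06 to 0.44), with an adjusted p of 0.0599 in edgeR's quasi-likelihood test, 0.00374 with the block and 0.0485 in DESeq2.

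S100A1 (ENSG00000160678.12, chr1:153627926-153632039, plus strand), best known from heart and skeletal muscle, was the most variable member. NT replicates 1 to 4 had 37.6, 56.0, 28.7 and 59.4 CPM and TNF replicates 23.8, 34.9, 21.1 and 62.1 CPM. The NT and TNF ranges overlapped almost entirely, and the libraries with the most S100A1 (NT 2, NT 4 and TNF 4) were the 3 with more small structural RNA, whose part in the result was not tested. The log2 difference was -0.36 (95% CI -1.15 to 0.43), with an adjusted p of 0.525, or 0.0359 with the block, and 3 of 4 experiments were lower with TNF. Without the 3 libraries with more small structural RNA it was -0.33 (adjusted p 0.391), and on leaving out single libraries it ran from -0.77 without TNF replicate 4 (adjusted p 0.0867) to -0.17 without TNF replicate 3 (0.782), with -0.21 without NT replicate 4 (0.75) and -0.22 without TNF replicate 1 (0.757). S100A1 and S100A13 overlap over 3435 bases on opposite strands, and they were the 2 members with fractional expected counts, in all 8 libraries. The library kit keeps strand, but the strand setting of the counting is not given in the sources used here. Reads of S100A1 and S100A13 therefore cannot be told apart with certainty. A long noncoding RNA gene, ENSG00000271853, also overlaps S100A13 over 5029 bases on the same strand and S100A1 over 4114 on the opposite strand. Which overlap gave the fractional counts was not tested.

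**Figure D2:**
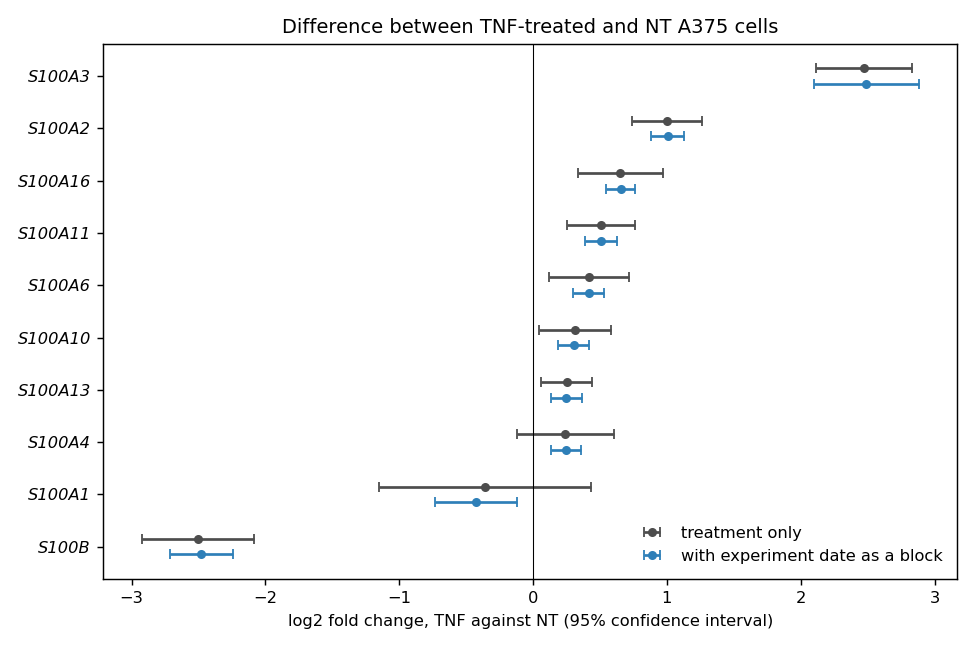
Log2 fold change of TNF against NT with its 95% confidence interval for each S100 gene, from edgeR with treatment as the only term (grey) and with the experiment date as a block (blue). The estimates of the fits lay close together, and the intervals of S100A1, S100A2, S100A4, S100A6, S100A10, S100A11, S100A13, S100A16 and S100B were narrower with the block, while that of S100A3 was slightly wider.

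Levels of different members were compared per kilobase of their canonical transcript. In NT, S100A6 led with 1681 ± 257 CPM per kb (SD, n = 4), followed by S100A10 with 645 ± 74.3 and S100A11 with 531 ± 62.8, whose library ranges overlapped. A middle group held S100A4 (205 ± 40.9 CPM per kb), S100A13 (196 ± 14.7) and S100A16 (193 ± 34.1), each overlapping its neighbour in that order. S100A1 followed with 81.3 ± 26.3 CPM per kb, apart from the genes on either side. The lowest were S100A2 (24.6 ± 3.37 CPM per kb), S100A3 (16.8 ± 4.26) and S100B (15.6 ± 3.54), which overlapped from one to the next. With the merged exons of all annotated transcripts as the length, S100A11 stood above S100A10, S100A16 above S100A4 and S100A2 above S100A1. On that length S100A13 (42.2 CPM per kb in NT) lay well below S100A16 (133) and S100A4 (111). S100A1 (14.998) then lay between S100A2 (15.5) and S100A3 (14.9), close to both.

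With TNF the top of this order was the same and the lower part was rearranged. S100A3 went from the 9th to the 7th place with 93.6 ± 7.29 CPM per kb, next to S100A1 (63.5 ± 33.5), whose range it overlapped. S100A16, at 304 ± 49.4 CPM per kb, moved to the 4th place, ahead of S100A4 (242 ± 45.6) with overlapping ranges. With merged exons as the length, S100A16 stood in the 4th place in both groups and S100A3 in the 6th place with TNF. S100B stayed last at 2.75 ± 0.380 CPM per kb and no longer overlapped its neighbour S100A2 (49.3 ± 5.76). S100A6 alone gave 31.2 to 42.8% of the members' summed CPM in every library, and S100A6, S100A10, S100A11 and S100A16 together gave 84.0 to 86.4%. All members together took 0.195 to 0.216% of the counts of an NT library and 0.243 to 0.276% of those of a TNF library.

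**Figure D3:**
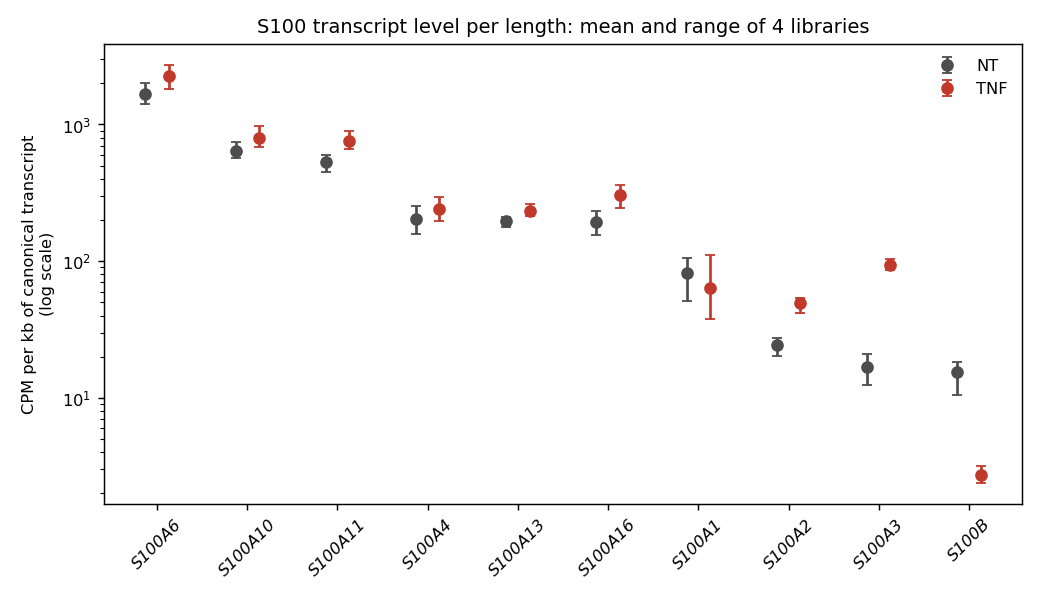
Level of each S100 gene in CPM per kilobase of canonical transcript on a log scale, as the mean (points) and range (bars) of 4 libraries, NT in grey and TNF in red. S100A6 was highest in both groups, S100A3 rose from 16.8 to 93.6 CPM per kb and S100B fell from 15.6 to 2.75 CPM per kb.

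Within each group the members also differed from one experiment to the next. For 8 of the 10 genes, ranking the 4 experiments by level gave the same order in NT as in TNF, which held for 14.5% of all genes tested. S100A4 was highest in experiment 1 and lowest in experiment 4 in both groups, and S100A2 was highest in experiment 3 and lowest in experiment 4. S100A1, S100A10, S100A11 and S100A16 were all highest in experiment 4 and second highest in experiment 2. S100A6 was highest in experiment 1 and lowest in experiment 2, while S100B was highest in experiment 1 and lowest in experiment 3. The exceptions were S100A3 and S100A13. For S100A3 experiment 4 was lowest in NT and highest in TNF.

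**Figure D4:**
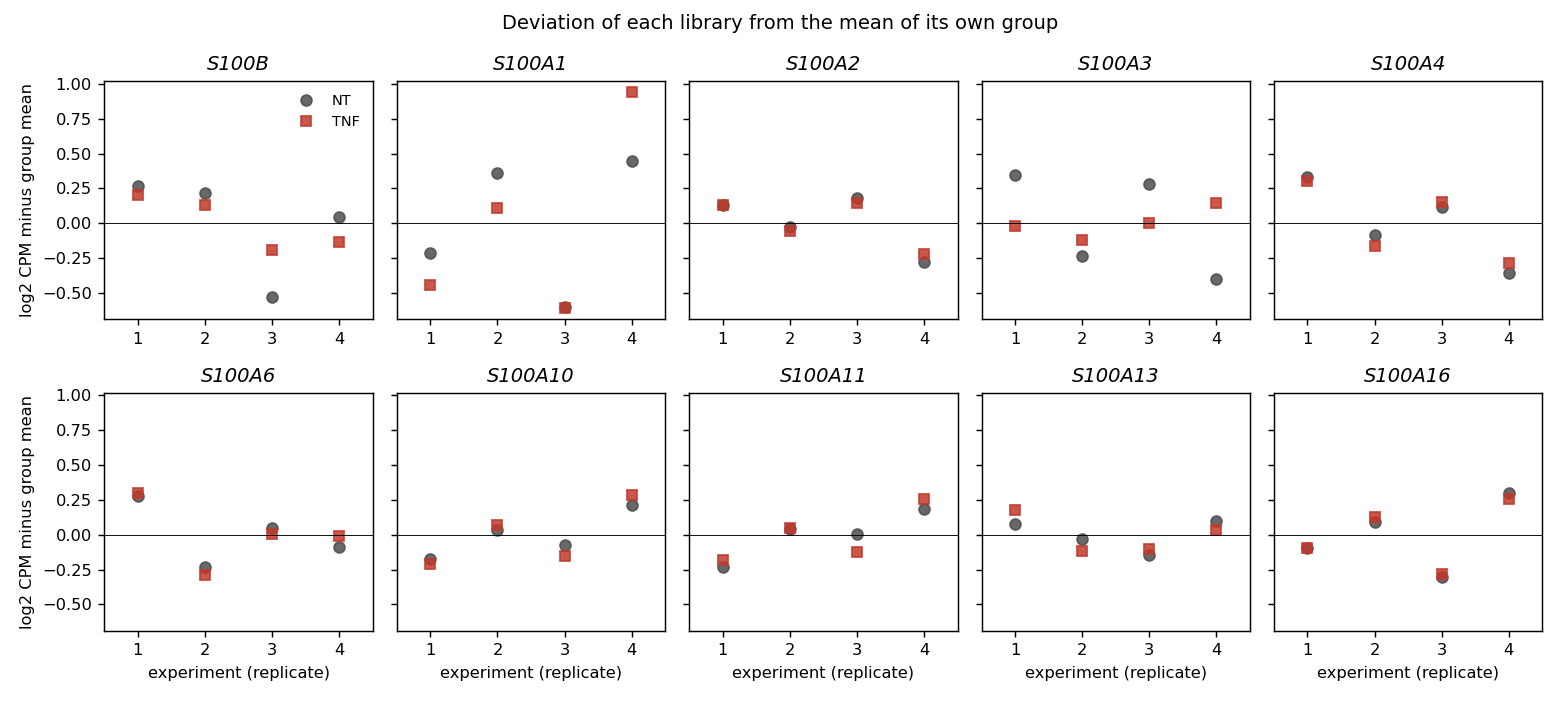
Deviation of each library from its own group's mean log2 CPM, by experiment, with NT as grey circles and TNF as red squares. The symbols nearly coincide for S100A2, S100A4, S100A6 and S100A16, and for S100A3 they lie on opposite sides of 0 in experiment 4, at -0.40 in NT and 0.15 in TNF.

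Of the 11 other S100 genes looked up, 6 had a count in any library and 2 were deep enough to test. S100P, a member known from placenta and many carcinomas, had 13 to 28 counts in NT and 20 to 46 in TNF, with a log2 difference of 0.54 and an adjusted p of 0.441 in edgeR's quasi-likelihood test. S100A5 had 12 to 25 counts in NT and 11 to 23 in TNF (0.25, adjusted p 0.593). S100A14 reached 10 counts in one library, S100Z 6 and S100A7A 1. S100A9, one chain of the neutrophil protein calprotectin, had 1 count in TNF replicate 1 and 2 in TNF replicate 2. Its partner chain S100A8 was listed at 0 in all libraries, as were S100A7, S100A7L2, S100A12 and S100G.

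On chromosome 1, 16 S100 genes annotated as protein-coding start within 1.65 Mb, between 151982915 and 153627926. In the same stretch start 72 genes without an S100 symbol. Of these neighbours 24 had a count and 7 were tested. Over all genes tested 14.5% were called higher and 9.9% lower. Of the 7 neighbours tested, none was higher and 2 were lower, with a median log2 fold change of 0.05. Both were genes of the fused S100 type, in which an S100 domain is joined to the repeats of an epidermal structural protein. FLG, filaggrin, had 37.6, 40.7, 61.9 and 50.6 CPM in NT and 17.6, 22.9, 25.7 and 26.3 CPM in TNF. It was lower in all 4 experiments, by 1.04 on the log2 scale (adjusted p 0.00142, edgeR). The expected counts of FLG were not all whole numbers, so a part of its reads was shared with other transcripts. HRNR, hornerin, was a low transcript that fell from 77 to 117 counts per library in NT to 49 to 69 in TNF (log2 difference -0.71, adjusted p 0.0148). TCHH, trichohyalin, at 18 to 37 counts per library, differed by 0.39 and did not pass (adjusted p 0.317). In the test without a block, the call of HRNR was lost without NT replicate 2 and without the 3 libraries with more small structural RNA. HRNR was lower in all 4 experiments, and with the experiment date as a block its adjusted p was 0.00883 (edgeR, all libraries).

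Among 22 genes whose proteins bind or work with S100 proteins, 9 rose, 2 fell and 11 did not pass. Their median log2 fold change was 0.16, and 14.5% of all genes tested were called higher and 9.9% lower. The list was chosen with earlier results of these data known, so the counts are a description and not evidence about the partners. PLAU, among the 9, passed the filter on low counts only through its TNF libraries. In the blocked test 11 rose and 3 fell, against 21.3% and 18.2% of all genes. AHNAK and IQGAP1 (adjusted p 0.0278, edgeR) were then also called higher and KCNK3 (0.00597) lower. ANXA2, annexin A2, forms a tetramer with S100A10. It had 562, 664, 634 and 708 CPM in NT and 1034, 1157, 1032 and 1128 CPM in TNF. The groups were wide apart and the log2 difference was 0.76 ± 0.0861 (SE, adjusted p 0.000103, edgeR), against 0.31 for S100A10. Its expected counts were not all whole numbers, so a part of its reads was shared with other transcripts.

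ANXA1, annexin A1, a partner of S100A11, moved the other way. Its NT libraries had 695, 617, 713 and 542 CPM and its TNF libraries 386, 377, 383 and 306 CPM. All TNF libraries were below all NT libraries, by 0.82 on the log2 scale with an SE of 0.108 (adjusted p 0.000279), whereas S100A11 was higher.

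The partners of S100A13 did not move alike. IL1A, interleukin 1α, went from 0.692 to 1.78 CPM in NT to 42.7 to 58.3 CPM in TNF, a 45.2-fold rise (adjusted p 2.02e-07, edgeR). FGF1, whose release also involves S100A13, fell from 5.21, 4.32, 2.17 and 3.36 CPM in NT to 0.890, 0.676, 0.718 and 0.421 CPM in TNF, 5.54-fold lower. The TNF values of FGF1 rest on 13 to 31 counts per library. SYT1, synaptotagmin 1, which joins S100A13 and FGF1 in the release complex, had a log2 difference of 0.02 and did not pass (adjusted p 0.933).

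The annexin A2 and S100A10 tetramer is linked to plasminogen activation at the cell surface, and genes of that process were also among those that rose. PLAT, tissue plasminogen activator, had means of 141 CPM in NT and 263 CPM in TNF, without overlap. Its log2 difference was 0.90 (adjusted p 0.00635, edgeR), and its expected counts were not all whole numbers. PLAUR, the urokinase receptor, had 34.6, 42.3, 39.6 and 52.6 CPM in NT and 132, 156, 129 and 193 CPM in TNF, 3.61-fold higher. PLAU, urokinase, had at most 2 counts in an NT library and 16 to 25 in a TNF library, so it passed the filter on low counts only through its TNF libraries, and its rise is measured from a very low base. MYH9, the nonmuscle myosin IIA heavy chain that S100A4 binds, was steady at 608 to 627 CPM in NT and rose to 1042 to 1291 CPM in TNF, a log2 difference of 0.89 (adjusted p 1.7e-05). S100A4 itself differed by 0.24.

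**Figure D5:**
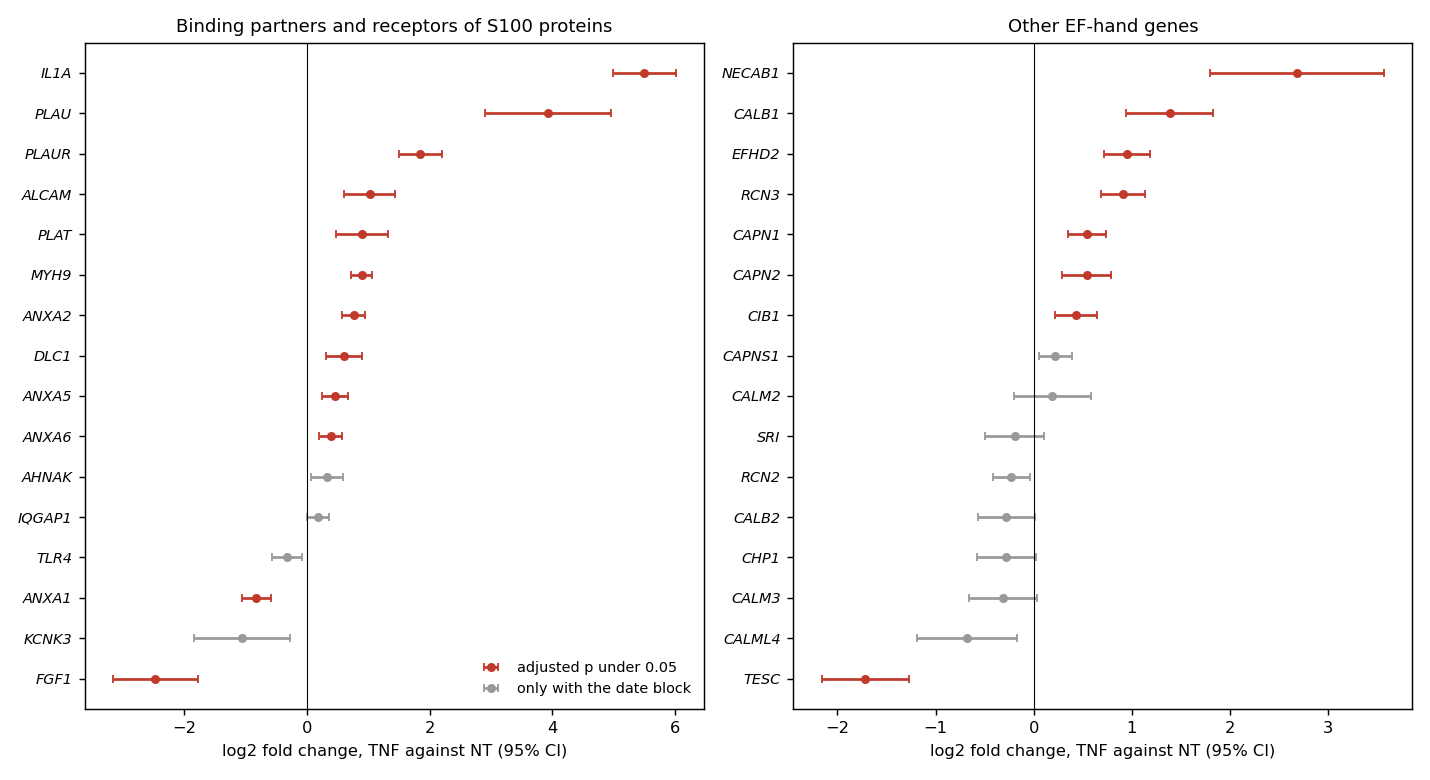
Log2 fold change with 95% confidence interval from edgeR with treatment as the only term, for S100 binding partners and receptors (left) and other EF-hand genes (right) whose adjusted p was under 0.05 in that test (red) or with the experiment date as a block only (grey). IL1A (5.50) and PLAU (3.93) stand at the upper end on the left and FGF1 (-2.47) at the lower end. PLAU passed the filter on low counts only through its TNF libraries. On the right NECAB1 (2.68) is highest and TESC (-1.72) lowest.

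Of 6 receptors for secreted S100 proteins, 5 were tested, 1 rose and none fell, with a median log2 fold change of -0.05. Over all genes tested 14.5% were called higher and 9.9% lower. AGER encodes RAGE, the receptor shared by several S100 proteins. It was barely expressed, at 5 to 17 counts in NT and 3 to 28 in TNF, and its log2 difference of 0.64 did not pass (adjusted p 0.415). ALCAM, an adhesion molecule that also binds S100B, rose from 22.9, 29.5, 26.2 and 44.1 CPM to 57.9, 66.2, 54.0 and 71.2 CPM, without overlap and 2.03-fold (adjusted p 0.0025). TLR4, named after its values were seen because its call changes, had a mean of 136 CPM in NT and 108 CPM in TNF, with an adjusted p of 0.054, or 0.0475 with the block (edgeR). BSG and MCAM, at means of 726 and 206 CPM in NT, had log2 differences of -0.05 and -0.15 that did not pass.

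Other EF-hand calcium-binding genes served as a comparison. Of 30 tested, 7 rose, 1 fell and 22 did not pass, where 14.5% of all genes rose and 9.9% fell. The median log2 fold change of the 30 was 0.0099. With the experiment date as a block 9 rose and 7 fell, where 21.3% of all genes rose and 18.2% fell. NECAB1, a neuronal calcium-binding protein, had 9.2 to 23.5 expected counts in NT and 60.4 to 145 in TNF, and CALB1, calbindin, rose 2.61-fold from a mean under 2 CPM. EFHD2, swiprosin, was far more abundant, with 145, 149, 171 and 148 CPM in NT and 256, 325, 264 and 343 CPM in TNF, a log2 difference of 0.95. TESC, tescalcin, fell from 15.5, 12.05, 9.91 and 13.1 CPM to 4.97, 2.70, 3.40 and 4.37 CPM, 3.28-fold lower with no overlap.

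S100B belongs to the melanocytic program, and its change was set beside the other markers of that program. None of the 4 that could be tested (SOX10, MITF, MLANA and PMEL) passed in either direction, and their median log2 fold change was 0.10. MLANA and PMEL had very few counts in every library, so their values say little about a fall. MITF, the master regulator of melanocytes, had means of 21.0 CPM in NT and 21.96 CPM in TNF. SOX10 had an adjusted p of 0.0882, or 0.00979 with the block, in the direction opposite to S100B. Whether S100B and SOX10 differ in their response was not tested.

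Markers of other cell types were counted in the same libraries, where 14.5% of all genes tested were called higher and 9.9% lower. Of 5 leukocyte markers 1 could be tested, LYZ, which was lower (adjusted p 0.047, edgeR), and PTPRC, the pan-leukocyte marker, had at most 2 counts. Their summed CPM was 4.97 to 7.14 in NT and 1.94 to 5.45 in TNF. Of 5 fibroblast markers 4 were tested and 1, DCN, rose, with a sum of 4.35 to 9.10 CPM in NT and 3.88 to 8.44 in TNF. Of 5 keratinocyte markers 3 were tested, KRT5 rose and KRT14 fell, and the sum was 57.9 to 74.2 CPM in NT and 56.8 to 62.5 in TNF. Of 3 endothelial markers 2 were tested and PECAM1 rose, with a sum of 0.825 to 1.80 CPM in NT and 2.12 to 3.43 in TNF. The part of these genes in the S100 differences was not tested.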

How the data were processed

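RNA of A375 cells, NT or treated with TNF, was prepared with a stranded mRNA kit per the labels. The authors aligned reads with Bowtie2 (version not given in the sources used here) and estimated expected counts per gene with RSEM 1.2.25, and they deposited these expected counts without normalization. Columns of the series table were matched to samples by title, with replicates numbered by experiment date. The counts filed under the 4 NT records are those of another NT date, so the series table was used.

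Expected counts were rounded, which changed the total by 0.000138%. Genes with at least 10 counts by edgeR's group filter (total at least 15) were kept, which left 16186. The main test was edgeR 4.0.16 (quasi-likelihood, robust, TMM, treatment only) in R 4.3.3, with Benjamini-Hochberg adjustment over all genes and a threshold of 0.05. DESeq2 1.42.0, the study's tool, limma 3.58.1 voom, other scalings, filters and left-out libraries were alternatives. Libraries of a date deviated together from their group means (correlations 0.351, 0.169, 0.238 and 0.46 over 16186 genes), and the dates entered as a block in one alternative. The pairing of NT with TNF libraries rests on the dates in the column names of the series table. Correlations between libraries of different dates were not computed, so another pairing was not tested. Pairs of libraries of a group differed beyond sampling noise (chi-square per degree of freedom at least 12.2). Positions come from GENCODE release 44 on GRCh38 and promoter sequences from RefSeq. The fits were tested on simulated data.

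The members and all gene lists were chosen with earlier results of these data known. Named were all members, other S100 genes with a count, and per list up to 4 genes with the largest change past the threshold, plus ANXA2, ANXA1, AGER, S100A8 and S100A9. Other genes (MYH9, PLAT, SYT1, IQGAP1, KCNK3, AHNAK, TCHH, TLR4, BSG, MCAM, marker genes and those of the closing section) were named after their values were seen.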

Additional observations from a re-analysis of the deposited data

Results flagged for a closer look

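ANXA1 in TNF replicate 4 stood apart from the other TNF libraries. Its log2 CPM was 8.26 (8.2576), against 8.56 to 8.59 in the other 3, a gap that takes 0.894 of the range of the group and exceeds Dixon's 95% critical value for 4 samples. It was 1 of 24 groups looked at, the 10 members, ANXA1 and ANXA2 in NT and in TNF, of which chance alone would set apart 1.2.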

How the results depend on the processing

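Of the values of 10 members under 18 other settings, 161 kept their side of the threshold, 12 lost it, 7 gained it and 0 reversed. With the replicate block, 8 members were higher and 2 lower, 1 receptor (TLR4) and 7 EF-hand genes were lower, 1 melanocytic marker (SOX10) was higher and 2946 of all genes were lower. The cause of each shift was not tested. S100A6 also lost its call with RLE factors (0.0518), upper-quartile factors (0.0947), a minimum of 10 counts in every library (0.0502), and without replicate 4 (0.152) or the 3 libraries with more small structural RNA (0.304). TLR4 made 1 receptor lower with DESeq2, RLE, upper-quartile factors, library totals and no filter, and on leaving out single libraries the count ran from 0 to 1, being 1 without NT replicate 1. Lower EF-hand genes, 1 in the main test, were 3 with DESeq2, 2 with voom, 3 with upper-quartile factors, 6 with library totals, 2 with 10 counts in every library, 3 without the 3 libraries and 4 without replicate 4, and 1 to 3 on leaving out single libraries, with 3 without TNF replicate 4. Of the cluster neighbours, 1 was higher without a filter, and 1 was lower without the 3 libraries and at adjusted p under 0.01. On leaving out single libraries 1 to 2 were lower, with 1 without NT replicate 2. Over all genes 2514 were lower with library totals, and at adjusted p under 0.01 1548 were higher and 772 lower. Library totals moved the median of all genes to -0.0863. With merged exons as length, NT levels in CPM per kb were 9.56 (S100B), 14.998 (S100A1), 15.5 (S100A2), 111 (S100A4), 751 (S100A6), 428 (S100A10), 461 (S100A11), 42.2 (S100A13) and 133 (S100A16). Counts of AGER, S100P, S100A5 and PLAU were too low at this depth for small differences.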

Other observations

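Annexins other than ANXA1 and ANXA2 differed among themselves. ANXA5, a phospholipid-binding annexin, had 363, 409, 405 and 434 CPM in NT and 489, 563, 514 and 643 CPM in TNF, with no overlap and a log2 difference of 0.45 (adjusted p 0.00607, edgeR's quasi-likelihood test). ANXA6 rose from 114 ± 9.27 to 149 ± 12.5 CPM (SD, n = 4), by 0.39 on the log2 scale (adjusted p 0.00723). ANXA11 had means of 243 and 240 CPM and a log2 difference of -0.01 (adjusted p 0.923). AHNAK, a giant scaffold protein bound by the annexin A2 and S100A10 tetramer, had means of 684 and 858 CPM, with an adjusted p of 0.072, or 0.0147 with the experiment date as a block. CACYBP, the calcyclin-binding protein named for S100A6, did not pass (0.14, adjusted p 0.433).

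Among the other EF-hand genes, the large subunits of both classical calpains, calcium-dependent proteases, rose. CAPN1 had 159, 151, 139 and 128 CPM in NT and 228, 218, 205 and 188 CPM in TNF, and CAPN2 had 323, 371, 352 and 412 CPM in NT and 462, 626, 475 and 563 CPM in TNF. Both differed by 0.54 on the log2 scale and neither overlapped between groups (adjusted p 0.00119 and 0.0052, edgeR). Their shared small subunit CAPNS1 differed by 0.22, with an adjusted p of 0.0592, or 0.00701 with the block.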
